A study of Mus musculus with 2 samples.

Results

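The core autophagy genes and cargo receptors were taken as 36 genes, found by their symbols among the 22609 genes listed for each library of an Ago2 RNA immunoprecipitation from TM4 Sertoli cells. They were divided by role into 9 steps, namely the ULK complex, the Atg9 and Atg2 lipid transfer proteins, the WIPI proteins, the ubiquitin-like conjugation system, the Atg4 proteases, LC3 and Gabarap, the ubiquitin-type cargo receptors with Calcoco1, the mitochondrial receptors Bnip3 and Bnip3l, and Tecpr1. TM4 is an established mouse cell line of Sertoli origin, the somatic cell that nurses germ cells in the testis. One group was transfected with a synthetic mimic of miR-471-5p and the other with scramble RNA, both cultures were lysed 48 h later, and RNA bound to the Argonaute protein Ago2 was recovered with an antibody and sequenced. Each group is 1 library, so no difference below has a replicate check and no test between the conditions could be made.

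Autophagy encloses cytoplasm in a double membrane, the autophagosome, and delivers it to the lysosome. The ULK kinase complex starts the process, Atg9 vesicles and Atg2 supply lipid, and WIPI proteins read the phosphoinositide made by the Vps34 complex. The conjugation system then attaches LC3 and Gabarap proteins to the membrane lipid phosphatidylethanolamine, and receptors that bind both LC3 and a cargo bring the cargo in. In LC3-associated phagocytosis (LAP), the same conjugation system places LC3 on the membrane of a phagosome that holds an engulfed cell, without need of the ULK complex. Sertoli cells engulf apoptotic germ cells, and the comparison of mimic with scramble was made by the study to find mRNAs that gain Ago2 association with miR-471-5p.

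The miRNA and the sites it could pair with are shown first, since pairing of its seed with an mRNA is what the pull-down was meant to capture. The mature miRNA lies on the minus strand of the X chromosome from 66792634 to 66792655 (GRCm38.p6), and capitals mark its seed, bases 2 to 8.
mmu-miR-471-5p: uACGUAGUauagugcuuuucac
The matching mRNA letters are CTACGT for the shortest site (6mer), ACTACGT for the 7mer-m8 site, CTACGTA for the 7mer-A1 site and ACTACGTA for the 8mer site, each searched on the mRNA strand, and every longer site contains the 6mer. In the longest annotated 3′-UTRs of the 36 genes, 57980 bases in all, the 6mer was found in 0 genes. Of 11751 tested genes with a 3′-UTR, 6.75% held the 6mer, 1.55% the 7mer-m8 site and 0.40% the 8mer site. At the density of the 6mer in the 3′-UTRs of tested genes, 2.5 sites would fall in 57980 bases. Atg12, whose main annotated 3′-UTR has 4306 bases, and Tecpr1, with 1474, are among the 36 genes without a match. The study named both genes as targets, with predicted sites in 3′-UTRs and coding regions. It placed both among mRNAs whose Ago2 association rose with the mimic. Lower Atg12 and Tecpr1 protein was reported in mimic-transfected Sertoli cell lines and in Sertoli cells of miR-471-5p transgenic mice. The study also reported lower activity of an Atg12 3′-UTR luciferase reporter with the mimic. In the counts here both genes instead had fewer reads with mimic, with log2 ratios of mimic to scramble of -0.34 for Atg12 and -0.497 for Tecpr1.

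In the coding regions, 67407 bases in all, 3 of the 36 genes held a match against 16.3% of 11773 tested genes. The 7mer-m8 site was held by 4.34% of tested genes and the 7mer-A1 site by 1.92%. At the density of the 6mer in the coding regions of tested genes, 7.0 sites would fall in 67407 bases. These 3 sites are printed with the bases around them, 30 letters each on the mRNA strand, with the match in capitals (GENCODE M21, GRCm38).
Atg9a, 6mer, chr1:75186801-75186830, minus strand, exon 8 of 16: taccatcgcatcCTACGTttccagaactac
Atg2b, 7mer-m8, chr12:105651441-105651470, minus strand, exon 18 of 42: cagcaactcgcACTACGTgctggagctcct
Atg16l2, 7mer-A1, chr7:101296761-101296790, minus strand, exon 5 of 18: ctgagcgcaatCTACGTAatgagcgtagag
The log2 ratios of mimic to scramble for these genes were 0.04 for Atg9a, -0.39 for Atg2b and 0.99 for Atg16l2, so the 3 genes with a coding match did not share a direction. Sites with wobble pairs or mismatches were not searched, and a match of letters is not evidence of binding.

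The mimic library held 18628310 reads on genes and the scramble library 18717225, and read counts below are given as mimic, then scramble. The hairpin gene Mir471 was listed at 0 reads in both, so these counts give no check of the transfected miRNA. Of 15 Sertoli cell markers, 8 had at least 20 reads over both libraries, with Kitl at 12245 and 16163 reads (mimic and scramble) and Sox9 at 1228 and 1070. Fshr, the receptor for follicle-stimulating hormone, was at 0 reads in both libraries, which allows up to 0.161 and 0.160 reads per 1000000 (CPM) by counting error, and Amh was at 5 and 5. Leydig, germ cell, macrophage and endothelial marker lists summed to between 6 and 143 reads per library, while the peritubular list summed to 73100 and 101808, of which Acta2 took 73076 and 101778. The part of these markers in the values below was not tested. A count from a pull-down holds both the abundance of an mRNA and the share of it bound to Ago2, which cannot be told apart here, and neither can fewer cells of a kind and less RNA per cell.

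The autophagy genes were well covered in the pull-down, and Sqstm1 had the highest level of all 36. All 36 genes had at least 20 reads over both libraries, the minimum set for 12186 tested genes, and together they took 0.427% of the reads on genes with mimic and 0.389% with scramble. Levels were compared between genes as reads per kilobase of transcript and per 1000000 reads on genes (RPKM), and 23 of the 36 genes were above the median of tested genes in the scramble library, 11.6 RPKM. Sqstm1, which encodes the ubiquitin and LC3 binding receptor p62, had 258 RPKM with scramble and 338 with mimic. Gabarap followed with 162 and 232 RPKM, and Wipi1 with 124 and 151. At the other end, Atg16l2 had 0.529 and 1.06 RPKM and Gabarapl2 had 0.765 and 0.704, both under the 10th percentile of tested genes. The order of the levels was largely shared by the libraries. Within it Rb1cc1 went from rank 12 with scramble to rank 21 with mimic, Bnip3l from 14 to 7 and Bnip3 from 6 to 3. With the exon-union length of the gene in place of 1 transcript, the scramble level of Wipi1 came to 59.5 RPKM in place of 124. That of Map1lc3b came to 16.96 in place of 33.4. Sqstm1 came to 186 RPKM with scramble and 244 with mimic, closer to Gabarap, which stayed at 162 and 232. These levels, among others, depend on the isoform assumed.

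**Figure D1:**
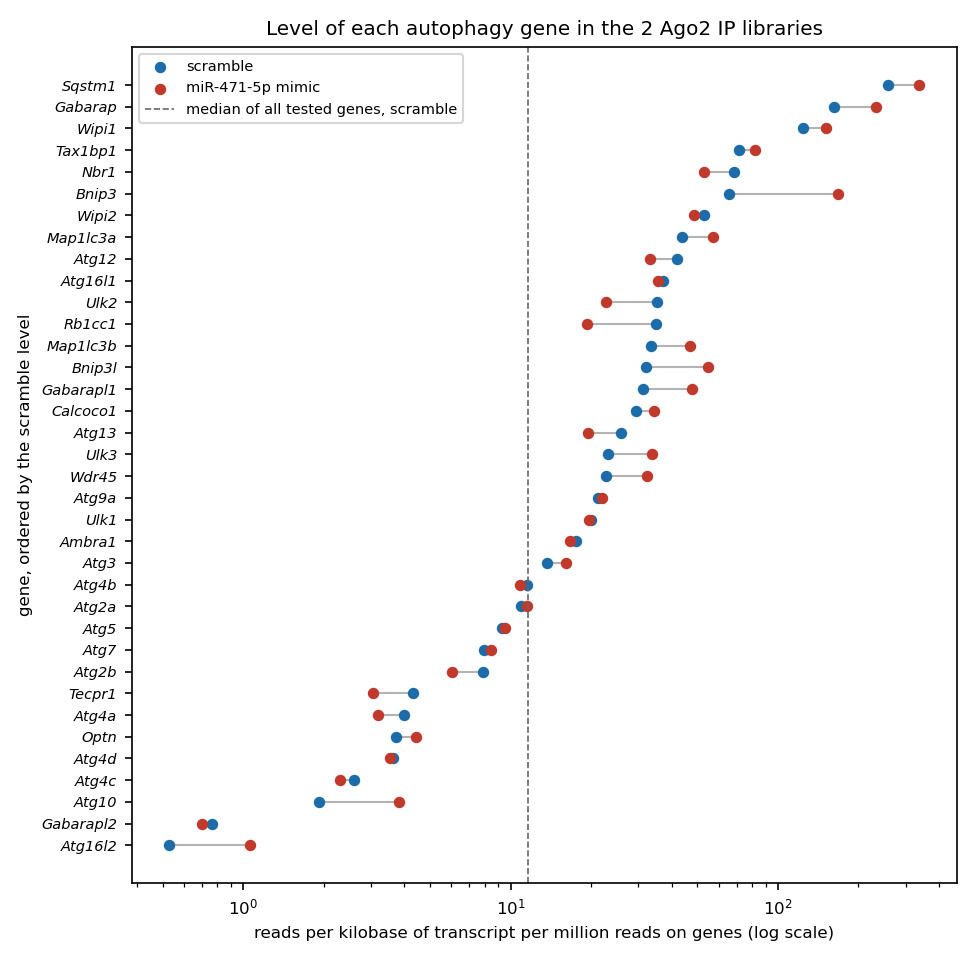
Level of each of the 36 genes in the scramble (blue) and mimic (red) library, in RPKM on a log scale, 1 library each, ordered by the scramble level, with the median of tested genes in the scramble library (11.6) as a dashed line. Sqstm1 is highest in both libraries, and Bnip3 shows the widest gap on the log scale among the genes above the line.

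The differences between the libraries were modest for most of the genes. Log2 ratios (mimic over scramble) were taken after scaling of the library sizes. The 95% interval was derived from the share of a gene's reads that came from mimic (Clopper-Pearson), and it covers counting error alone since reads are not independent molecules and no replicates exist. A gene was counted as higher or lower when its log2 ratio passed 0.5 in that direction, a change of 1.41-fold. By this rule 8 of the 36 genes were higher with mimic (22.2%), against 14.9% of all tested genes, and 2 were lower (5.56%), against 12.1%. The 8 were Bnip3, Atg16l2, Atg10, Bnip3l, Gabarapl1, Ulk3, Wdr45 and Gabarap, and the 2 were Rb1cc1 and Ulk2. Genes near the threshold were Gabarap at 0.504 and Wdr45 at 0.508 just inside it, and Map1lc3b at 0.477 and Tecpr1 at -0.497 just outside it. The median log2 ratio of the 36 genes was 0.05, close to that of all tested genes at -0.00063, and their interquartile range was -0.15 to 0.41 against -0.27 to 0.31. The counting interval lay wholly above 0 for 15 of the 36 genes (background 31.5% of tested genes) and wholly below 0 for 8 (background 32.5%). At a log2 ratio of 1 in either direction, 1 gene was higher (background 3.96%) and 0 were lower (background 2.95%). The whole counting interval lay past 0.5 for 4 genes (background 6.72%) and past -0.5 for 2 (background 5.46%).

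**Figure D2:**
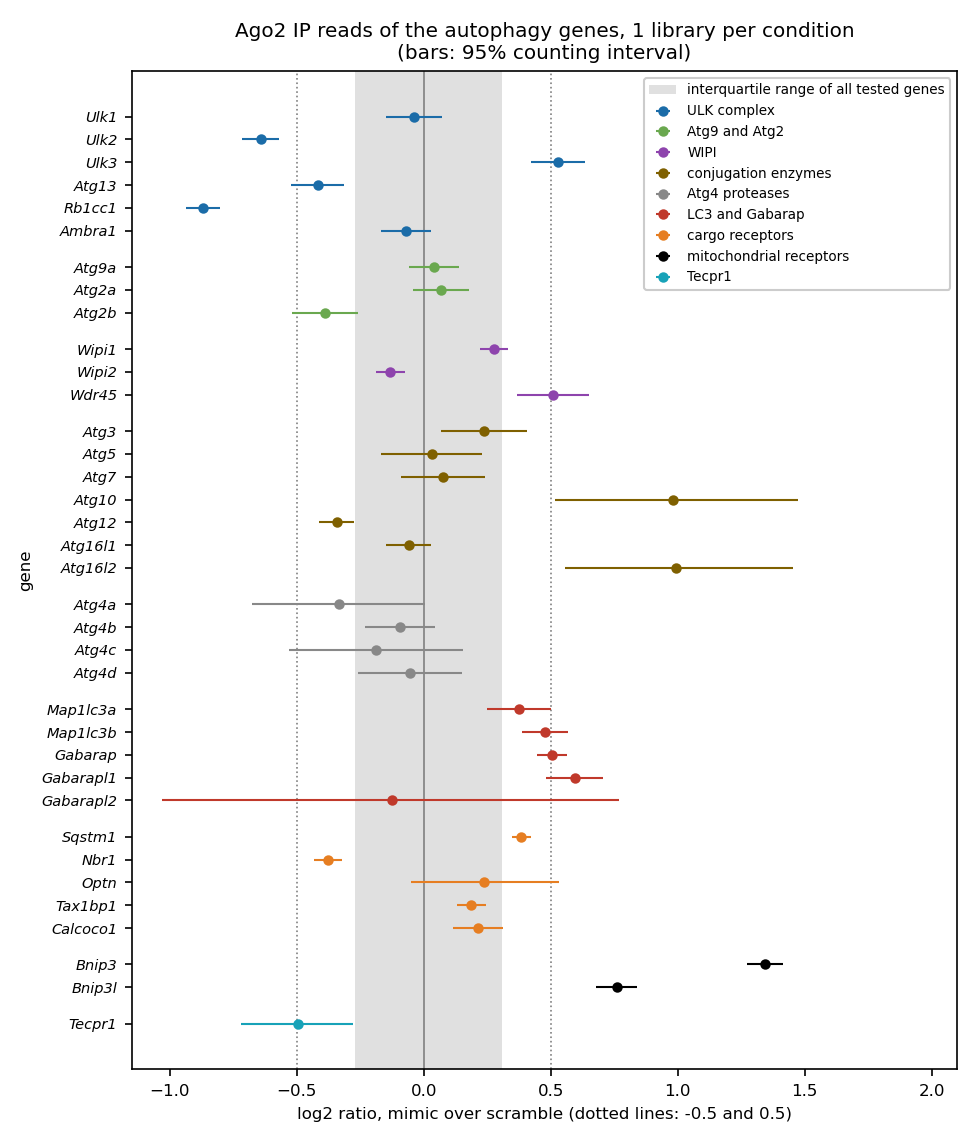
Log2 ratio of mimic to scramble for each gene, grouped by step, with its 95% counting interval as a bar, from 1 library per condition, a grey band for the interquartile range of all tested genes (-0.27 to 0.31) and dotted lines at -0.5 and 0.5. Bnip3 lies farthest to the right at 1.34 and Rb1cc1 farthest to the left at -0.87, and 4 of the 5 LC3 and Gabarap genes lie to the right of the band.

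The mitochondrial receptors had the highest step median, 1.05. Bnip3 and Bnip3l encode related proteins of the outer mitochondrial membrane that bind LC3 and Gabarap and so mark mitochondria for autophagy, and both genes are known for their induction in low oxygen. Bnip3 (chromosome 7, 138890836 to 138909519, GRCm38) had 5490 mimic and 2162 scramble reads, a 2.54-fold higher count. Its log2 ratio was 1.34 (95% counting interval 1.27 to 1.42), at percentile 98.0 of the tested genes. Bnip3l had 3289 and 1942 reads, 1.69-fold higher with mimic, and a log2 ratio of 0.76 (0.68 to 0.84) at percentile 92.7. Both receptors were thus higher with mimic, Bnip3 by 0.58 more on the log2 scale (0.48 to 0.69, counting error alone). Of the 50-base windows of the Bnip3 transcript, 48.9% also occur in transcripts of 5 genes elsewhere in the genome, and 25.1% of those of Bnip3l do in 1 gene, and a read from such a window can align to more than 1 place. The share of alignments to more than 1 place was 39.8% with mimic and 35.6% with scramble, and its part in these ratios was not tested.

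The LC3 and Gabarap genes had a step median of 0.48, and 2 of the 5 passed the threshold, Gabarapl1 and Gabarap. Set against genes of similar transcript length, as described further on, the step median was 0.27 and 0 of the 5 passed. These small ubiquitin-like proteins are the ones attached to the autophagosome and to the LAP phagosome, and LC3 is the marker by which both are followed. Map1lc3a had 1179 mimic and 908 scramble reads, a log2 ratio of 0.38 (0.25 to 0.50). Map1lc3b, the usual LC3 of blots and imaging, had 2291 and 1645 reads and a log2 ratio of 0.48 (0.39 to 0.57). The 2 LC3 genes lay close together as measured, with a difference of 0.10 (-0.05 to 0.26) that counting error covers. Against genes of similar length they lay apart, Map1lc3a at -0.06 and Map1lc3b at 0.45. Gabarap had 5830 and 4109 reads and a log2 ratio of 0.50 (0.45 to 0.56), and Gabarapl1 had 1612 and 1067 reads and 0.59 (0.48 to 0.71). Each of these 4 intervals excluded 0, and the 4 values spanned 0.38 to 0.59. Gabarapl2, whose protein is also called GATE-16, was the exception with 22 and 24 reads and a log2 ratio of -0.12 (-1.03 to 0.77), an interval wide enough to hold the values of the other 4. For Gabarapl2, 17% of the 50-base windows occur in 4 genes elsewhere, and their part in its low count was not tested.

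The ULK complex was split, with the lowest value of all 36 genes and a step median of -0.24. Rb1cc1 encodes FIP200, the large scaffold of the complex, and lies on chromosome 1 from 6206197 to 6276648 (GRCm38). It had 2725 mimic and 4977 scramble reads, a log2 ratio of -0.87 (-0.94 to -0.80) at percentile 4.05 of the tested genes. The kinase gene Ulk2 had 2426 and 3787 reads and a log2 ratio of -0.64 (-0.72 to -0.57), and Atg13, the adaptor that joins kinase and scaffold, had 1307 and 1746 reads and -0.42 (-0.52 to -0.31). The counting intervals of these 3 subunits lay wholly below 0, and Rb1cc1 and Ulk2 passed the threshold. Ulk1, the other main kinase, had 1306 and 1341 reads and -0.04 (-0.15 to 0.07). Ambra1, a regulator of the Beclin 1 and ULK complexes, had 1623 and 1704 reads and -0.07 (-0.17 to 0.03), and for both genes the interval held 0. Ulk3, a relative of Ulk1 also known from Hedgehog signalling, had 1772 and 1229 reads and a log2 ratio of 0.53 (0.42 to 0.63), opposite to Ulk2. Ulk1 exceeded Ulk2 in log2 ratio by 0.60 (0.47 to 0.74), so the kinase paralogues differed beyond counting error. Against genes of similar length the step median was -0.13, and of its 3 genes past the threshold Rb1cc1 alone stayed past it. Rb1cc1 lay at percentile 11.3 of the tested genes of similar length.

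The lipid transfer and WIPI genes had step medians of 0.04 and 0.28, and of their 6 genes Wdr45 alone passed the threshold. Atg9a, the multispanning protein of the vesicles that seed the membrane, had 1678 mimic and 1632 scramble reads, a log2 ratio of 0.04 (-0.06 to 0.14). Atg2a had 1372 and 1308 reads and 0.07 (-0.04 to 0.18), and its paralogue Atg2b had 849 and 1111 reads and -0.39 (-0.52 to -0.26). The 2 lipid transfer genes therefore differed by 0.46 (0.29 to 0.63). Wipi1 had 5763 and 4760 reads and a log2 ratio of 0.28 (0.22 to 0.33). Wipi2, which recruits Atg16l1 to the membrane, had 4659 and 5102 reads and -0.13 (-0.19 to -0.07). Wdr45, the Atg2 partner also called WIPI4, had 972 and 683 reads and 0.51 (0.37 to 0.65), so the 3 WIPI genes lay on both sides of 0. Against genes of similar length Wdr45 no longer passed the threshold (0.27), the WIPI median was 0.16 and Wipi2 lay at 0.07, above 0. Exons of another annotated gene cover 42.6% of the exonic bases of Atg9a and 40.4% of those of Wdr45, as they do 27.2% of Bnip3, 23.2% of Atg4d and 20.6% of Sqstm1, and reads there could be lost as ambiguous or belong to the neighbour.

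The conjugation system, which LAP shares with autophagy, had a step median of 0.07 and no common direction. Atg7, the E1-like enzyme, had 611 mimic and 580 scramble reads, a log2 ratio of 0.07 (-0.09 to 0.24). Atg5, which is joined to Atg12, had 419 and 410 reads and 0.03 (-0.17 to 0.23), and Atg16l1, which places the Atg12 and Atg5 conjugate on the membrane, had 2065 and 2152 reads and -0.06 (-0.15 to 0.03). The intervals of these 3 central genes held 0. Atg3, the E2-like enzyme for LC3, had 619 and 525 reads and 0.24 (0.07 to 0.41). Atg12 had 2960 and 3754 reads and a log2 ratio of -0.34 (-0.41 to -0.27), and among the conjugation genes it alone had an interval wholly below 0. Atg10, the E2-like enzyme for Atg12, had 113 and 57 reads and a log2 ratio of 0.98 (0.51 to 1.47). Atg16l2, a paralogue of Atg16l1, had 128 and 64 reads and 0.99 (0.56 to 1.46), and these 2 genes had the lowest levels of the step, 1.92 and 0.529 RPKM with scramble. Their ratios are the least well determined of the 8 genes higher with mimic.

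The Atg4 proteases, which trim LC3 and Gabarap before conjugation and later release them from lipid, had no gene past the threshold. Atg4a had 131 mimic and 165 scramble reads, Atg4b 840 and 896, Atg4c 136 and 155, and Atg4d 391 and 406. All 4 had fewer reads with mimic, with log2 ratios from -0.33 in Atg4a to -0.05 in Atg4d and a median of -0.14, and all 4 counting intervals held 0. Against genes of similar length the step median was -0.04, and Atg4b at 0.06 and Atg4d at 0.15 lay above 0. For Atg4a, 63.6% of the 50-base windows occur in 2 genes elsewhere.

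The cargo receptors had a step median of 0.21, with Nbr1 on the other side of 0. Sqstm1 had 12838 mimic and 9835 scramble reads, a log2 ratio of 0.38 (0.35 to 0.42). Its partner Nbr1, which also binds ubiquitin and LC3, had 4716 and 6120 reads and -0.38 (-0.43 to -0.32), so the 2 receptors lay about equally far from 0 on opposite sides. Tax1bp1 had 5005 and 4393 reads and 0.19 (0.13 to 0.25). Optn, the optineurin gene known from mitophagy and clearance of bacteria, had 216 and 183 reads and 0.24 (-0.05 to 0.53). Calcoco1, a receptor for endoplasmic reticulum, had 1805 and 1556 reads and 0.21 (0.11 to 0.31). None of the 5 passed 0.5 in either direction. Against genes of similar length Sqstm1 came to 0.27 and Nbr1 to -0.23, and the step median was 0.21. Tecpr1, whose protein binds the Atg12 and Atg5 conjugate at the lysosome, had 292 and 412 reads and a log2 ratio of -0.497 (-0.72 to -0.28), just outside the threshold.

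Read in the order of the pathway, the step medians went from -0.24 in the ULK complex through 0.04 for Atg9 and Atg2, 0.28 for the WIPI genes, 0.07 for conjugation and -0.14 for the Atg4 proteases to 0.48 for LC3 and Gabarap, 0.21 for the cargo receptors, 1.05 for the mitochondrial receptors and -0.50 for Tecpr1, the lowest value and a step of 1 gene. Bnip3 and Bnip3l lay above every gene of the other steps apart from Atg10 and Atg16l2, which lay between them. Each step holds between 1 and 7 genes measured in the same 2 libraries, so these medians are descriptions and not a test of the steps. For the ULK complex the log2 ratio of the summed reads was -0.41, and for conjugation it was -0.13, on the other side of 0 from the median, because Atg12 and Atg16l1 supply most of the reads of that step.

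**Figure D3:**
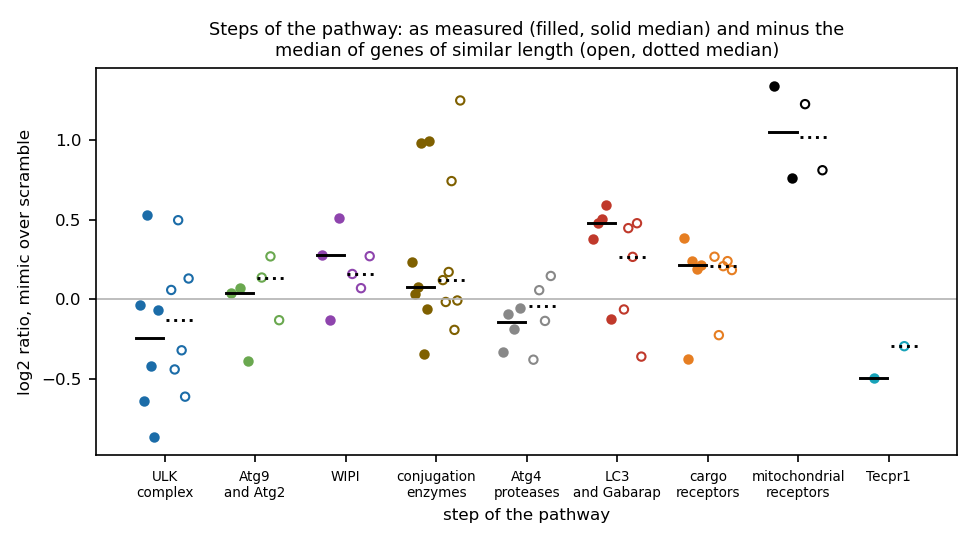
Log2 ratios of mimic to scramble by step, each point a gene, as measured (filled points, solid line at the median) and after subtraction of the median of tested genes in the same 1 of 10 transcript length bins (open points, dotted line). The mitochondrial receptors stay highest in both forms (1.05 and 1.02), while the LC3 and Gabarap median goes from 0.48 to 0.27 and the ULK complex from -0.24 to -0.13.

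Transcript length moved with the log2 ratio over all genes, and with it the contrast between the steps. Tested genes were put into 10 bins of 1206 to 1209 genes by length. The median log2 ratio was 0.44 in the bin with the shortest transcripts (67 to 1243 bases) and -0.26 in the bin with the longest (from 6456 bases). Spearman's rho between length and log2 ratio was -0.44 across 12081 tested genes with a length and -0.59 across the 36 autophagy genes, values that share the same 2 libraries and are given as descriptions. The step medians of length were 1677 bases for LC3 and Gabarap and 4404 for the ULK complex. After subtraction of the median of the same length bin, Bnip3 remained at 1.23, Bnip3l at 0.81, Atg16l2 at 1.25 and Atg10 at 0.74, and these 4 genes passed 0.5 (11.1% of the 36, against 11.8% of tested genes). Rb1cc1 at -0.61 was the 1 gene past -0.5 (2.78%, against 10.2% of tested genes), and Ulk2 came to -0.44. With bins of exon-union length, 5 genes passed 0.5 (against 11.9% of tested genes) and 1 passed -0.5 (against 10.1%). Among the LC3 and Gabarap genes, Gabarapl1 came to 0.48 and Map1lc3b to 0.45, Gabarap to 0.27 and Map1lc3a to -0.06. Map1lc3a thus lay close to the median of the shortest transcripts. Atg12 came to -0.19 and Tecpr1 to -0.30. Ulk3 came to 0.497, just short of the threshold, and Wdr45 to 0.27. The part of length in the differences was not tested.

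**Figure D4:**
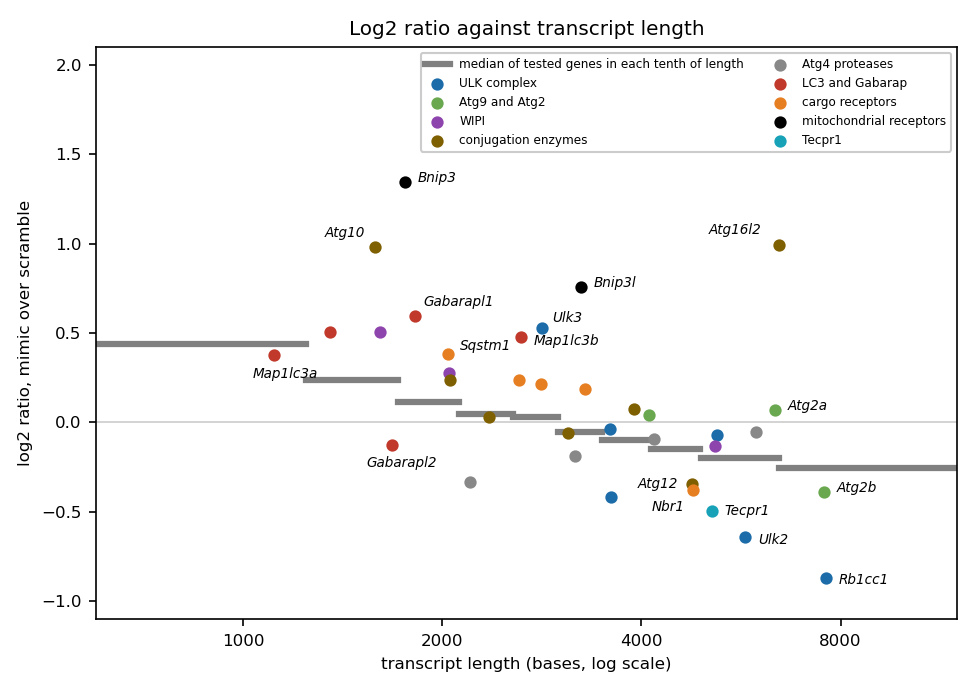
Log2 ratio of mimic to scramble against transcript length in bases (log scale), with each of the 36 genes as a point coloured by step and grey bars at the median of all tested genes in each of 10 length bins (the first and last bars are drawn to the edges of the plot). The grey bars descend from 0.44 to -0.26, and Bnip3, Bnip3l, Atg10 and Atg16l2 stand well above the bar of their length while Rb1cc1 stands below.

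Other genes of autophagy were compared from a list of 41, of which 38 had at least 20 reads (5 of them under an older symbol). Their median log2 ratio was -0.09, and 1 of the 38 was higher and 3 were lower, 2.63% and 7.89%, against 14.9% and 12.1% of tested genes. Vamp8, a SNARE of autophagosome fusion with the lysosome, was the higher gene with 709 mimic and 453 scramble reads, a log2 ratio of 0.65. The lower genes included Ncoa4, the receptor for ferritin, with 29 and 86 reads and -1.55 (-2.23 to -0.95). Ykt6, another fusion SNARE, had 1354 and 2174 reads and -0.68, and Epg5, a tethering factor listed under an older symbol, had 1170 and 1712 reads and -0.55. Becn1, the Beclin 1 subunit of the Vps34 complex, had 713 and 964 reads and -0.44 (-0.58 to -0.29), which did not pass the threshold. The study named Becn1 as a target, with Ago2 association that rose with the mimic. It also reported lower Becn1 protein and lower activity of a Becn1 3′-UTR luciferase reporter. In the counts here Becn1 had fewer reads with mimic. The 8 genes of the Vps34 complex and its regulators had a median of -0.11 with none past 0.5 in either direction as measured, and the 11 fusion genes one of -0.27. Against genes of similar length the median of the 38 was 0.03 and that of the fusion genes -0.12. Vamp8 came to 0.20 and Epg5 to -0.29, within the threshold, while Ykt6 at -0.73 and Ncoa4 at -1.46 stayed past it. Becn1 came to -0.29. Sh3glb1 of the Vps34 list at -0.53, Fundc1 at -0.56 and Nufip1 at 0.52 passed the threshold only in this form. Of all tested genes, 11.8% passed 0.5 and 10.2% passed -0.5 in the length-adjusted form. The 6mer seed match was found in the 3′-UTR of 0 of the 38 genes, Becn1 among them, against 6.75% of tested genes. In the coding region 6 held it, against 16.3% of tested genes, and 2 of these held the 7mer-A1 site, against 1.92%.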

How the data were processed

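RNA recovered with an Ago2 antibody from TM4 cells was sequenced by the authors as 1 library per condition. The deposited values are raw read counts per gene symbol, without normalization, and the submitters' processing notes list CASAVA 1.8.2, TopHat2 2.0.8b and HTSeq with build mm9. The annotation and strand setting are not given in the sources used here. The 5 summary rows (reads outside genes, ambiguous, aligned to more than 1 place and others) were left out. They held 47.3% of all entries with mimic and 44.1% with scramble.

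TMM scaling was done with edgeR 4.0.16 under R 4.3.3, 0.5 was added to each count, and log2 ratios were computed for genes whose counts summed to 20 or more. A quasi-likelihood fit needs replicates, which a design of 1 library per condition lacks, so no p-value is given. Intervals (95%) and the allowance for a count of 0 (3 counts) cover counting error alone. Intervals of a difference between 2 genes used the normal approximation of the log ratio. Scripts were tested on simulated data. Transcript lengths, 3′-UTRs, coding regions and positions came from GENCODE M21 (GRCm38) by symbol, 99.1% of tested genes having a length, and were not combined with mm9 coordinates. The transcript with the longest coding region gave the length. The miRNA sequence is from RefSeq (GRCm38.p6). Python 3.11.15, numpy 2.4.6, scipy 1.17.1 and pandas 2.3.3 were used. All 36 genes are named, and of the 41 other autophagy genes those past a log2 ratio of 0.5 in either direction, with or without the length adjustment, and Becn1. The members and lists were chosen with earlier results of these data known. Alternatives were other scalings, filters, thresholds and added counts, and adjustment for length or GC content.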

Additional observations from a re-analysis of the deposited data

Results flagged for a closer look

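Alignments to more than 1 place were noted because no one reported on them and their share was higher with mimic, at 39.8% of entries against 35.6% with scramble. They are not assigned to genes, and 4 of the 36 autophagy genes had over 10% of their 50-base transcript windows in a gene elsewhere, namely Atg4a (63.6%), Bnip3 (48.9%), Bnip3l (25.1%) and Gabarapl2 (17%). Without these 4 genes, 6 of 32 were higher (18.8%) and 2 were lower (6.25%) past a log2 ratio of 0.5, in place of 8 and 2 of 36. The shares of all tested genes were 14.9% and 12.1%, with genes that have copies elsewhere kept in.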

How the results depend on the processing

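With 1 library per condition the spread between replicates is unknown, and neither leaving out a library nor a block could be tried. No paired analysis was possible because each condition has 1 library. With size factors of DESeq2 1.42.0, total reads on genes or 5 added to each count, the log2 ratio of each of the 36 genes stayed within its counting interval. Filters of at least 1 or 200 counts, and another choice of transcript for the seed search, kept the counts of genes within 1.5 times of the reported ones. Other choices moved values. Under the length adjustment 16 of the 36 genes left their counting interval, though no gene past the threshold changed sign. The counts of 8 higher and 2 lower genes became 1 and 0 at a log2 ratio of 1, and 4 higher genes had the whole counting interval past 0.5 (6.72% of tested genes). After subtraction of the median of each gene's transcript length bin they were 4 and 1, and with exon-union length, an alternative chosen after seeing the data, 5 and 1 (11.9% and 10.1% of tested genes). With the length adjustment the step medians came to 0.27 for LC3 and Gabarap, -0.13 for the ULK complex and 0.16 for the WIPI genes, and 7 genes within the threshold crossed 0, among them Map1lc3a (0.38 to -0.06) and Wipi2 (-0.13 to 0.07). From summed reads they came to -0.41 for the ULK complex, 0.11 for WIPI and -0.13 for conjugation, since genes with many reads then weigh more. After subtraction of the median of each gene's GC content bin, also chosen after seeing the data, the Atg9 and Atg2 median came to -0.13. It thereby crossed 0, while the LC3 and Gabarap median came to 0.38 and that of the mitochondrial receptors to 1.18. In the same form Tecpr1 came to -0.60, past the threshold, and the median of the 36 genes to -0.02. The cause was not tested. Depth limits Gabarapl2, Atg10, Atg16l2, Atg4a and Atg4c most, with 22 to 165 reads per library.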
